A study of Mus musculus with 120 samples.

Results

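The IN of NOD progressors at 3 weeks before the onset of diabetes (−3) was compared with the IN of the same mice at 5 weeks before onset (−5). The comparison held 20 of the 120 libraries of the series, 10 at each time, chosen by their labelled time and paired by mouse number. Both libraries of a mouse lay in the same sequencing batch, with mice 1 to 5 in batch 1 and mice 6 to 10 in batch 2. All were female NOD/ShiLtJ mice, a strain that develops autoimmune diabetes spontaneously, and progressors were those that became hyperglycemic during the study. No agent or allele distinguished the times. An IN is a porous polycaprolactone scaffold placed under the skin of the back, and the whole explant, with every cell type in it, was lysed for total RNA. Scaffolds were taken from the quadrants of the back in rotation and replaced, so the pair of libraries of a mouse comes from 2 different scaffolds. Age at each biopsy is not given for these libraries, since the times count back from each mouse's own onset. The question set by the design was whether the niche still changed between these times, both of which precede hyperglycemia.

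An implanted scaffold is walled in by a foreign body response, in which monocytes enter, become macrophages and fuse into giant cells while fibroblasts lay down matrix and vessels grow in. Lymphocytes, granulocytes and dendritic cells pass through such tissue in smaller numbers, which is why it has been used as a window on immune activity elsewhere. In NOD mice the autoimmune attack on β cells runs for weeks before blood glucose rises, and genes that respond to glucose, such as Txnip and Arrdc4, are textbook sensors of that rise in many tissues.

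The libraries carried the markers of such tissue. Per kilobase of exon, the 14 markers of lipid-associated macrophages and giant cells had a median level of 171.5 CPM (counts per 1000000 of a library's total, scaled by TMM), the 13 macrophage markers 79.3, the 10 fibroblast markers 11.3 and the 8 pericyte and smooth muscle markers 10.7. The defining markers of B cells lay at a median of 0.148, those of epidermis at 0.085 and those of neutrophil precursors at 0.101 on the same scale. Markers of adjacent tissue were not all low, with skeletal muscle at 6.51 and adipocytes at 4.86, beside 6.27 for endothelium. Total counts ran from 29981790 to 47624571 at −5 weeks (median 35386980) and from 28904580 to 44771114 at −3 weeks (median 34254719). In every mouse of batch 1 the share of counts on the 7SL RNA gene Rn7s2 was higher at −3 weeks (5.41 to 17.5%) than at −5 weeks (2.42 to 7.57%). The share of protein-coding genes was lower at −3 weeks in each of these mice, and it went both ways in batch 2. The part of this shift in the values of other genes was not tested. Several libraries stood apart. In the −3 library of mouse 4, 17.5% of the counts fell on the 7SL RNA gene Rn7s2 and 4.01% on mitochondrial genes, against at most 9.10% and 1.96% in the other 9 libraries of that time. The −3 library of mouse 2 held the hair follicle genes at a summed 5441 CPM, and the −5 library of mouse 8 held the highest interferon-stimulated gene level of the 20. Fits without each mouse are therefore given where they move a value.

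No gene passed the test between −5 and −3 weeks. With each mouse as its own control, edgeR's quasi-likelihood test called 0 of 18888 genes (0%) at a Benjamini-Hochberg adjusted p under 0.05, and the smallest adjusted p was 0.864. At an unadjusted p under 0.05 there were 829 genes (4.39%), and their estimates split into 283 above 0 (1.5%) and 546 below it (2.89%). DESeq2 called 4 genes (0.0212%), 3 lower and 1 higher, with 946 (5.01%) at an unadjusted p under 0.05, and limma voom called 0, with 904 (4.79%). edgeR without the mouse as a block called 0 genes, with 1008 (5.34%) at an unadjusted p under 0.05, and so did the fits within batch 1 (762, or 4.15%) and within batch 2 (358, or 1.83%). Without mouse 10 there were 1790 such genes and again 0 past the adjusted threshold. There were 20 genes with the same sign in all 10 mice, 8 higher and 12 lower, and no gene had −3 libraries that were all above or all below the −5 libraries.

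The intervals say how large a change the data leave room for. The median standard error of a log2 change was 0.125, and the 95% interval lay within a 1.5-fold change in either direction for 13215 of the 18888 genes (70.0%) and within 2-fold for 16697 (88.4%). For the rest the interval reached further, so a change of that size is not excluded. The median log2 change over all genes was 0.0038, which TMM scaling sets near 0. In bulk tissue, fewer cells of a type and less RNA per cell cannot be told apart in any of the values that follow.

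**Figure D1:**
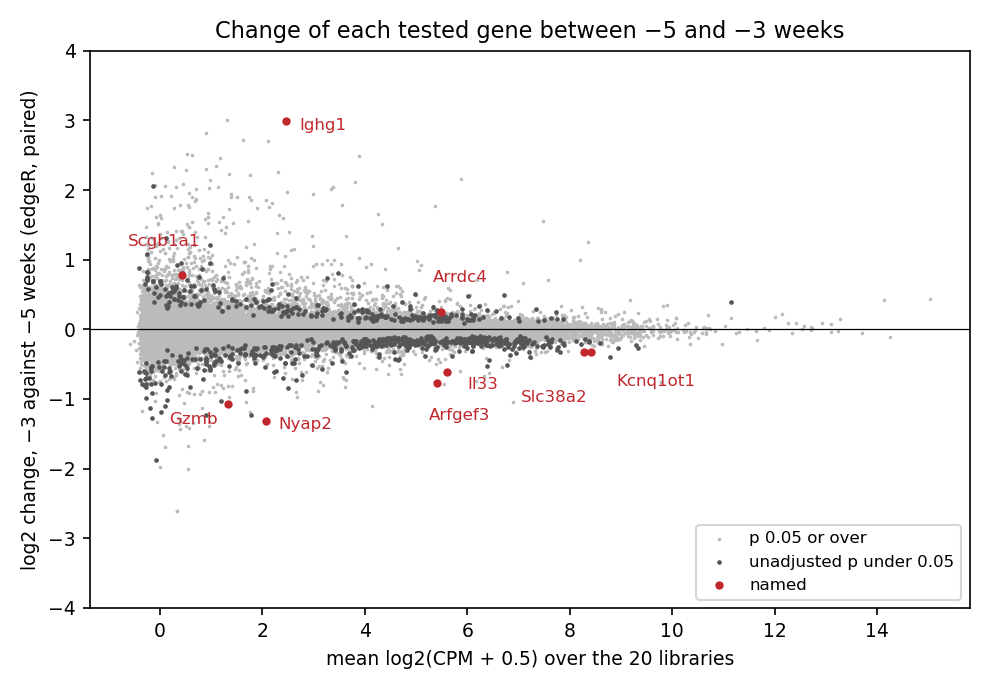
Log2 change between −5 and −3 weeks for each of the 18888 tested genes (vertical axis) against its mean level over the 20 libraries (horizontal axis, log2 of CPM plus 0.5). Dark points have an unadjusted p under 0.05 and red points are 9 of the genes named in the text; none of the 18888 genes passed the adjusted threshold, and the spread narrows as the level increases.

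The smallest p of all belonged to Arrdc4 (chromosome 7, 68736995 to 68749241, GRCm38), an α-arrestin that restrains glucose uptake and is induced by glucose through the factors MondoA and ChREBP. Its level was 29.6 to 47.2 CPM at −5 weeks (median 41.3) and 38.6 to 62.4 CPM at −3 weeks (median 46.6). It was higher at −3 weeks in 10 of 10 mice, with 5 of the −3 libraries above every −5 library and the remaining ones inside the −5 range. The log2 change was 0.25 (SE 0.05, 95% interval 0.15 to 0.36), with p = 0.000253 and an adjusted p of 0.864 by edgeR and 0.029 by DESeq2 (0.029 to 0.999 over the alternatives). It was 0.35 (SE 0.06) in batch 1 and 0.16 (SE 0.08) in batch 2, and 0.24 to 0.28 when each mouse was left out in turn. Its paralog Txnip, which acts on the same transporters, was named beside it after its values were seen. Txnip lay at 202 to 608 CPM (median 432) and then 208 to 738 CPM (median 485), with 6 of 10 mice higher, a log2 change of 0.24 (SE 0.15) and p = 0.144, with a wider spread between mice than Arrdc4. It overlaps the antisense Gm15441.

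The sequences upstream of both genes are shown because MondoA and ChREBP bind E-box-like letters. Each stretch is 120 bases from the RefSeq promoter table (GRCm38.p6), read 5′ to 3′ on the gene's own strand. Both lie before the RefSeq transcription start, but 1 exon annotated by GENCODE M21, on either strand, overlaps the Txnip stretch (0 for Arrdc4). The Arrdc4 stretch covers chr7:68749369-68749488 on the minus strand, and its capitals mark the palindrome CACGTG, which occurs once in the promoter window. The Txnip stretch covers chr3:96557827-96557946 on the plus strand, and its capitals mark a tandem of CACGNG and CACGNG with 5 bases between them, which also occurs once (N is any base).
Arrdc4: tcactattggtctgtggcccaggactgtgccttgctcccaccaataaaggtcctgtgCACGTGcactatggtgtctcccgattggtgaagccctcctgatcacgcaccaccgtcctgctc
Txnip: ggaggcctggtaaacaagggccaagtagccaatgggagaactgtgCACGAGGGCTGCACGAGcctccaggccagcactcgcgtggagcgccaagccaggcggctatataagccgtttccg
Both motifs were searched on both strands of all 32851 promoters of that table, which reach from 250 bases before the start to 50 after it. CACGTG was present in 2349 of them (7.15%) and the tandem in 16 (0.0487%). The Txnip window holds no CACGTG and the Arrdc4 window no tandem. These matches are letters only, and binding was not measured.

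Both genes were next placed in the course of the same progressors. Median Arrdc4 was 35.1 CPM at 6 weeks of age, 37.1 at −7 weeks, 41.3 at −5, 46.6 at −3, 49.2 at −1 and 66.2 at onset. Each is over 10 mice except −7 with 8. All 8 libraries at −7 weeks lay in batch 2, whereas each other time held both batches. They include libraries labelled mice 1 to 4, whose other progressor libraries lay in batch 1. Time and batch therefore cannot be told apart at −7 weeks. In a model over the 50 progressor libraries other than −7, with the mouse as a block, its log2 difference from −5 weeks was −0.21 at 6 weeks of age (adjusted p = 0.0346), 0.25 at −3 (0.927), 0.28 at −1 (0.142) and 0.73 at onset (5.51e-08). Txnip had differences of −0.33 (adjusted p = 0.102), 0.17 at −1 (0.626) and 0.69 at onset (0.0229) in that model. Both were past the threshold at onset, the time of hyperglycemia, and neither passed it at −3 or −1 weeks. These comparisons were added after the data were seen and share the −5 libraries. Over all genes they gave 4841 of 20595 calls (23.5%) for 6 weeks of age, 257 (1.25%) for onset and 0 for −1 weeks, where 2792 (13.6%) had an unadjusted p under 0.05.

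The 12 genes with the smallest p in each direction had log2 changes of 0.14 to 1.31 in size and p from 0.000253 to 0.00754. Since they were picked by that p, their changes are descriptions. Each moved the same way in at least 8 of 10 mice. All 24 kept their direction in batch 2 and the 23 that could be fitted in batch 1 did so there, but these libraries also chose them. Of all tested genes, 75.0% kept theirs in batch 2 and 80.7% in batch 1.

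Slc38a2 (chromosome 15, 96687392 to 96699730) encodes SNAT2, a transporter of small neutral amino acids that cells raise when amino acids run short. It lay at 264 to 403 CPM at −5 weeks (median 371) and 217 to 360 CPM at −3 weeks (median 261). It was lower in 10 of 10 mice, least in mouse 1 and most in mouse 2, and 6 of the −3 libraries were below every −5 library. The log2 change was −0.33 (SE 0.07, 95% interval −0.47 to −0.18), with p = 0.000395, an adjusted p of 0.864 by edgeR and 0.029 by DESeq2 (0.029 to 0.999 over the alternatives). Within batch 1 it was −0.31 and within batch 2 −0.34. Its median was 272 CPM at 6 weeks of age, 373 at −7, 272 at −1 and 288 at onset. The −7 and −5 medians were the high ones, but the −7 libraries all lay in batch 2.

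Kcnq1ot1 (chromosome 7, 143203458 to 143296549), an imprinted long noncoding RNA transcribed from the paternal chromosome against the Kcnq1 gene, also had the same sign in each mouse. Its level was 326 to 436 CPM at −5 weeks (median 405) and 247 to 420 CPM at −3 weeks (median 293), lower in 10 of 10 mice, with 7 of the −3 libraries under every −5 library. The log2 change was −0.33 (SE 0.07), p = 0.000626, with adjusted p values of 0.864 by edgeR and 0.0442 by DESeq2 (0.0442 to 0.999 over the alternatives). Kcnq1 lies on the opposite strand, and whether the counting used strand is not stated, so reads of the pair cannot be told apart.

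Il33 (chromosome 19, 29925114 to 29960718), the alarmin that stromal cells release on damage and that acts on regulatory T cells, mast cells and innate lymphoid cells, lay at 22.0 to 123 CPM at −5 weeks (median 60.7). At −3 weeks it lay at 11.5 to 102 CPM (median 42.0) and was lower in 9 of 10 mice, mouse 8 being the exception. Its log2 change was −0.62 (SE 0.14, 95% interval −0.93 to −0.31) with p = 0.000957, and DESeq2 gave an adjusted p of 0.0517 (0.0517 to 0.999 over the alternatives). At −3 weeks the 5 mice of batch 1 had at most 38.4 CPM and the 5 of batch 2 at least 45.6 CPM, so the times overlap widely and the difference is seen within mice (−0.76 in batch 1 and −0.47 in batch 2). Nyap2, an adaptor of phosphoinositide 3-kinase described in neurons, was the fourth gene past the threshold with DESeq2 (adjusted p = 0.0429, and 0.0429 to 0.999 over the alternatives). It had 1.25 to 26.1 CPM at −5 weeks (median 5.05) and 0.574 to 5.52 CPM at −3 weeks (median 2.9), with a log2 change of −1.31 (SE 0.31). Arfgef3, a large guanine exchange factor family member linked to insulin granule handling in β cells, had medians of 57.2 and 27.9 CPM with overlapping ranges (30.0 to 100.5 and 18.5 to 74.0), and its log2 change was −0.77 (SE 0.18, p = 0.00107).

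**Figure D2:**
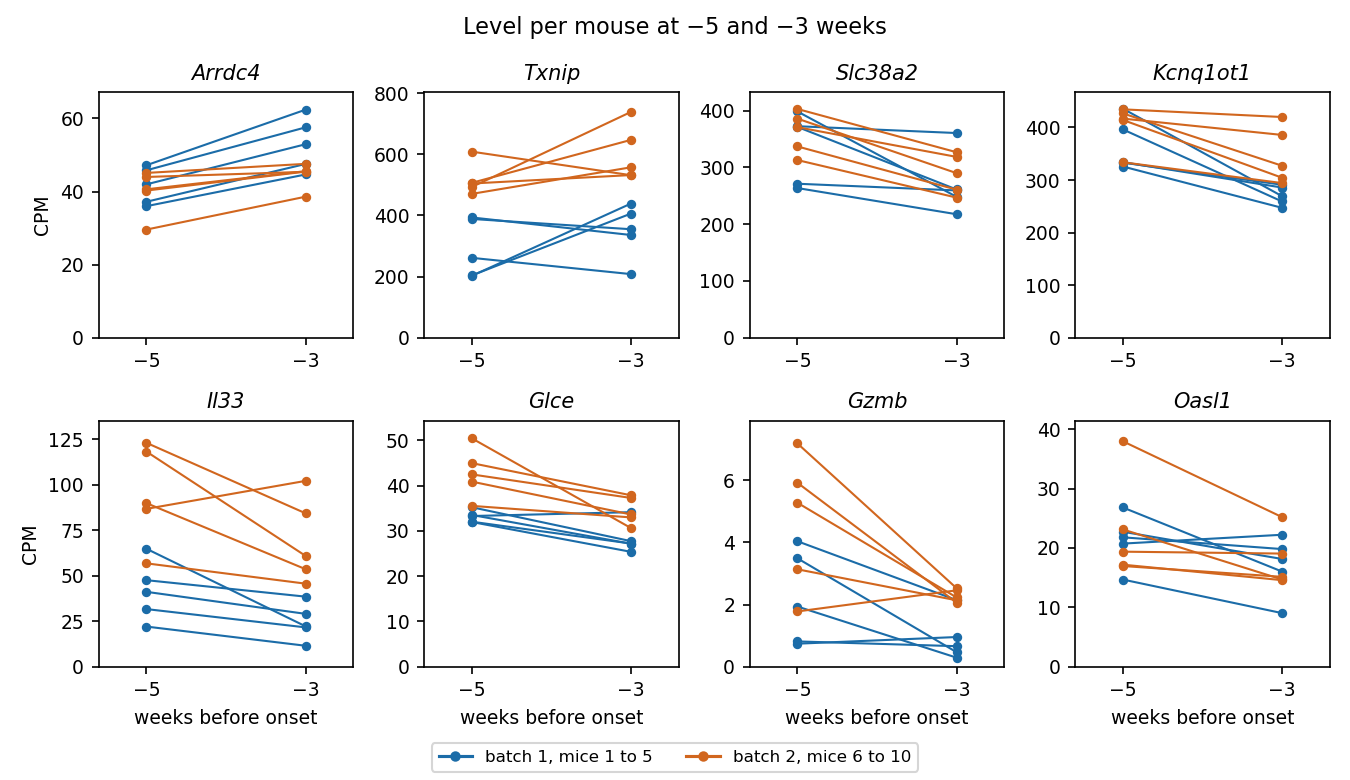
Level in CPM at −5 and −3 weeks for 8 genes, with a line for each mouse (blue, batch 1; orange, batch 2) and axes that start at 0. Every line of Arrdc4 slopes up and every line of Slc38a2 and Kcnq1ot1 slopes down, while Txnip, Gzmb and Oasl1 hold lines in both directions.

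Among the other genes at the lower end, Oxct1, the enzyme that lets tissues burn ketone bodies, had a log2 change of −0.25 (SE 0.06) and medians of 189.5 and 160.4 CPM. Glce, which modifies heparan sulfate chains, had −0.28 (SE 0.06), Taf9b, a subunit of the transcription machinery, −0.37 (SE 0.08), Rybp, a Polycomb complex member, −0.22 (SE 0.06) and Rabep1, a Rab5 effector of endosome fusion, −0.24 (SE 0.06). Each was lower in 9 of 10 mice. Xlr and Sh2d1b2, an adaptor of natural killer cells, were counted at under 1 CPM in the median at both times, with log2 changes of −0.87 (SE 0.23) and −0.99 (SE 0.23). Xlr belongs to a family of near copies, so its reads may be split.

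At the higher end, Plekhg2 had medians of 39.9 and 47.4 CPM and a log2 change of 0.24 (SE 0.07). Ctdspl, a nuclear phosphatase, had 24.6 and 31.5 CPM and a change of 0.33 (SE 0.09). Gramd1a, which carries cholesterol between membranes, had 72.0 and 79.3 CPM and a change of 0.14 (SE 0.04). Dexi (0.20, SE 0.06) overlaps Ciita on the opposite strand and Ggnbp1 (0.35, SE 0.09) overlaps Bak1, and both were higher in 10 of 10 mice. Lrrc45 of the centrosome had a change of 0.19 (SE 0.05) and the kinase Sbk1 of 0.22 (SE 0.07). The remaining genes were scarce: Sap25, a Sin3 partner (3.0 to 5.38 CPM in the median), Scgb1a1, the airway club cell secretoglobin (0.631 to 1.08), Kiss1r, the kisspeptin receptor (0.803 to 1.14) and the chaperone partner Dnajb7 (0.654 to 0.768), with log2 changes of 0.66, 0.78, 0.55 and 0.56. Sap25 shares sequence with the annotated Gm20605 on its own strand, and Kiss1r and Dnajb7 overlap R3hdm4 and Xpnpep3 on the opposite strand, so reads of these pairs may be mixed.

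**Figure D3:**
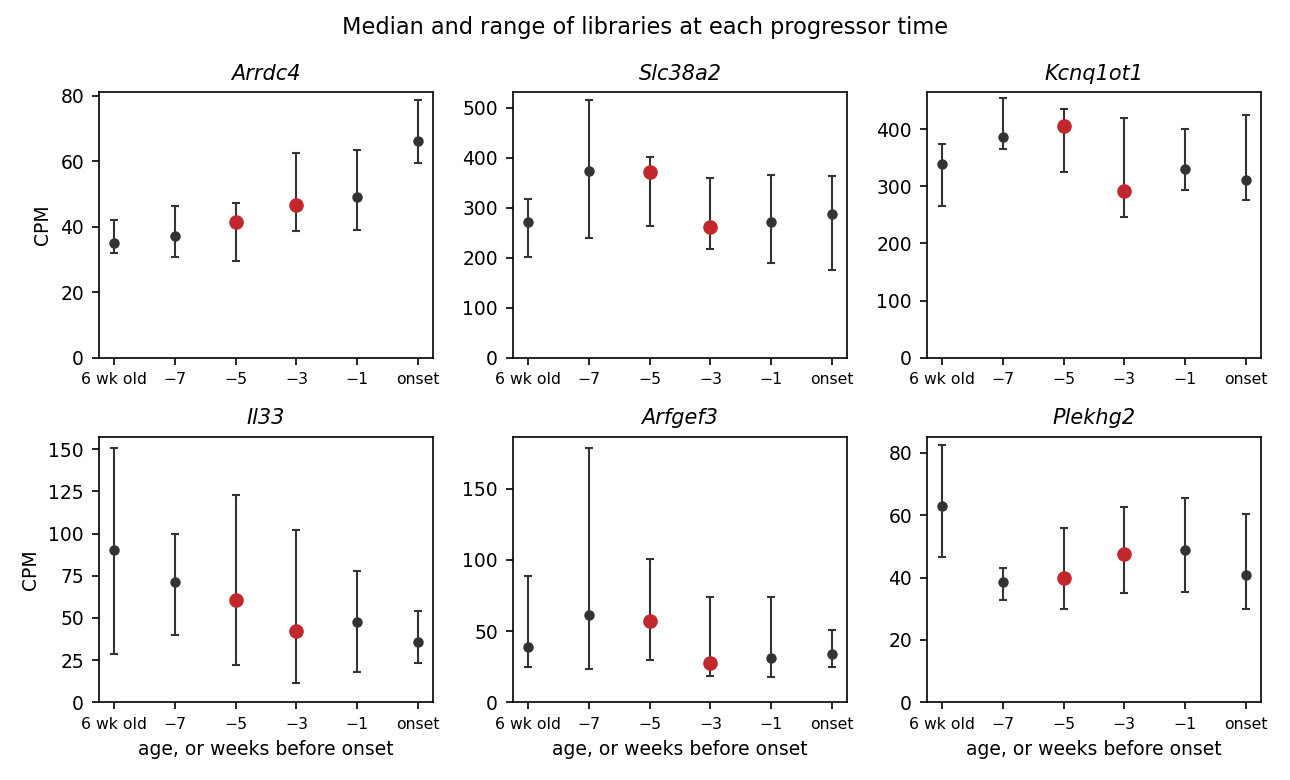
Median level in CPM (points) and the range over libraries (bars) for 6 of the 24 genes named by smallest p, at each progressor time. There are 10 libraries each and 8 at −7 weeks, where all lie in batch 2, whereas the other times hold both batches. Red points are −5 and −3 weeks; the Arrdc4 medians go from 35.1 to 66.2 CPM in order of time, whereas Slc38a2 is highest at −7 and −5 weeks.

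At onset, 4 of the 24 genes were past the threshold against −5 weeks in the 50-library model (1.25% of all genes were), namely Arrdc4, Lrrc45 (log2 0.32, adjusted p = 0.023), Taf9b (−0.41, 0.0184) and Oxct1 (−0.38, 0.0159). At 6 weeks of age 8 of them were, where 23.5% of all genes were, including Plekhg2 (0.58, adjusted p = 7.11e-06) and Slc38a2 (−0.40, 0.00913). The −5 libraries enter each of these values, so a high or low −5 level moves all of them together.

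The gene lists covered 37 pathways and cell types and 428 tested genes, of which 0 passed the threshold and 20 (4.67%) had an unadjusted p under 0.05, beside 4.39% over all genes. The largest list medians belonged to fat and gland. Adipocyte markers (11 of 13 tested) had a median log2 change of 1.77, with 10 genes higher and 0 past the test. Their summed level was 150 to 1593 CPM at −5 weeks (median 260) and 199 to 1738 CPM at −3 weeks (median 784.5). In single mice the list median ran from −3.54 in mouse 8 to 5.58 in mouse 5 and was positive in 7 of 10. Cidec, a lipid droplet protein, had 0.353 to 89.8 CPM and then 0.325 to 80.0 CPM, and its log2 change of 2.05 had an SE of 1.26 (p = 0.132). Plin1, the droplet coat protein, had a change of 2.12 (SE 1.31, p = 0.133), and Pck1, which adipocytes use to make glycerol, 2.48 (SE 1.38, p = 0.0986).

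Lipogenesis genes (14 of 14 higher, median 0.77, 0 past the test) had the same direction as the adipocyte markers in 10 of 10 mice, and mammary epithelial markers (6 of 10 tested, 6 higher, median 2.38) in 9 of 10. Srebf1, the master factor of the lipogenic program, had 58.9 to 111 CPM and then 74.3 to 158 CPM, a change of 0.23 (SE 0.13, p = 0.0896), and the elongase Elovl6 0.65 (SE 0.33, p = 0.0756). The milk genes of the mammary list were at 0 in many libraries, Wap in 9 of 20 and Csn2 in 8, and Krt18, a keratin of simple epithelium, had 0.0328 to 59.6 CPM and then 0.227 to 25.9 CPM (log2 change 2.71, SE 1.55, p = 0.107). The fitted medians for adipocytes were 2.15 in batch 1 and 1.29 in batch 2. The mammary median was 0.77 without the mouse as a block. The lists share the 20 libraries, and the part of adjacent tissue in other genes' values was not tested.

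Skeletal muscle varied more still. Its 12 markers summed to 224 to 8990 CPM at −5 weeks (median 1538) and 88.7 to 12064 CPM at −3 weeks (median 1235). The per-mouse medians ran from −4.10 in mouse 1 to 5.05 in mouse 5, positive in 4 of 10. The fitted median of −0.51 changed sign, to 0.32, without the mouse as a block, and to 0.04 and 0.01 without mouse 1 or mouse 9, so no direction can be given. Ttn, the giant spring of the sarcomere, spanned 139 to 5258 CPM at −5 weeks and 70.6 to 8157 CPM at −3 weeks. Hair follicle markers lay at a median of 3.85 CPM in sum at −5 weeks and 9.26 at −3 weeks, but 884 CPM in the −5 library of mouse 10 and 5441 CPM in the −3 library of mouse 2. Tchh, the trichohyalin of the inner root sheath, made up 2676 of these CPM. The list median of 0.78 was 0.32 without mouse 2 and −0.24 within batch 2.

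**Figure D4:**
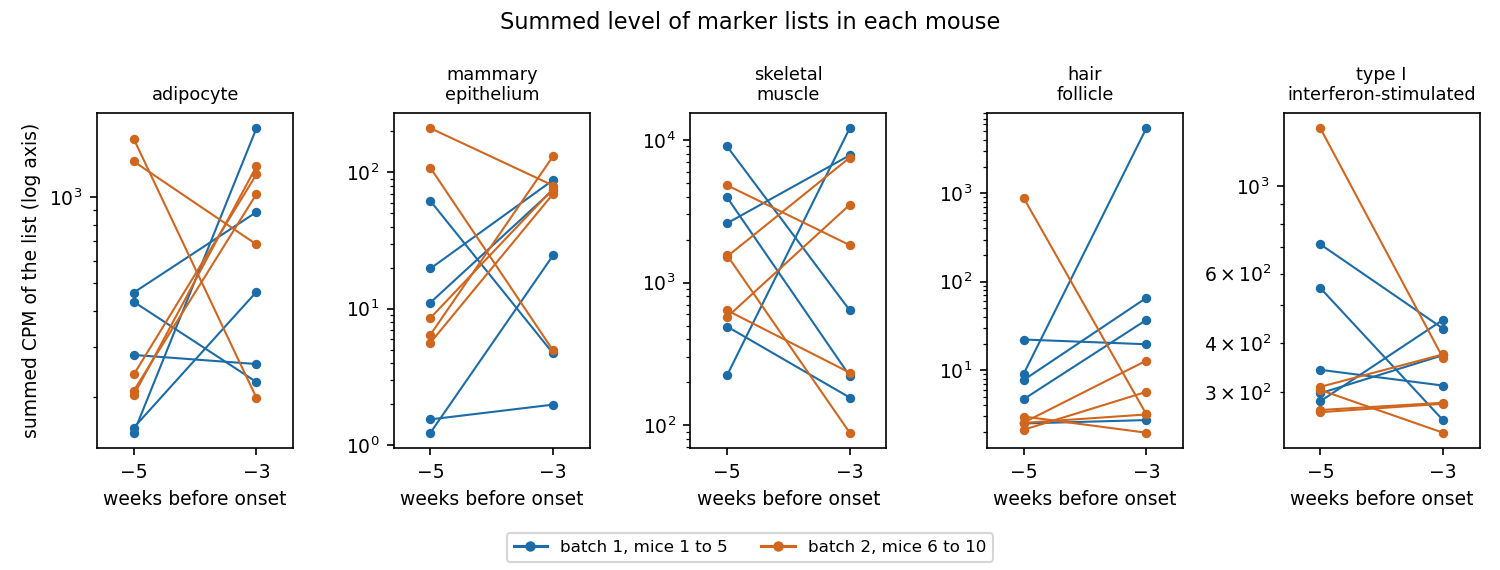
Summed CPM (log axis) of 5 marker lists at −5 and −3 weeks, with a line for each mouse (blue, batch 1; orange, batch 2). Lines for fat, mammary epithelium and muscle cross in both directions over more than a 10-fold range. For hair follicle transcripts, 1 library per time lies near or above 1000 CPM. Mouse 8 is highest for interferon at −5 weeks (1405 CPM), followed by mouse 2 (712) and mouse 4 (551).

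In the immune lists, the cytotoxic and natural killer genes had the lowest median. Of 10 tested, 9 were lower and 1 higher, with a median log2 change of −0.49, 3 at an unadjusted p under 0.05 and 0 past the threshold. Gzmb, the granzyme of killer lymphocytes, had 0.739 to 7.19 CPM at −5 weeks (median 3.31) and 0.29 to 2.53 CPM at −3 weeks (median 2.1). It was lower in 8 of 10 mice, and 3 of the −3 libraries lay under every −5 library (log2 change −1.07, SE 0.33, p = 0.00785). Gzma had medians of 2.56 and 0.944 CPM and a change of −1.23 (SE 0.44, p = 0.0159). The list median kept its sign in both batches (−0.82 and −0.26), and in single mice it was positive in 4 of 10. It was −0.23 without mouse 2, −0.27 without mouse 4 and −0.75 without the mouse as a block. These genes are scarce, and the 11 listed summed to 21.1 CPM in the median at −5 weeks and 13.1 at −3 weeks.

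All 20 type I interferon-stimulated genes were lower in the fit, with a median of −0.36 and 0 past the test. In single mice the list median was positive in 4 of 10 (per-mouse median −0.05), and the summed level had medians of 306 CPM at −5 weeks and 339 CPM at −3. The mouse 8 library at −5 weeks stood out. In mouse 8 they summed to 1405 CPM at −5 weeks and 366 at −3 weeks, whereas the other 9 mice had 267 to 712 CPM at −5 weeks and 236 to 458 at −3. Without mouse 8 the median was −0.17, and without the mouse as a block −0.72. Oasl1, an antiviral relative of the 2-5A synthetases, had the smallest p of the list (−0.35, SE 0.09, p = 0.00256), with 14.7 to 38.0 CPM and then 9.03 to 25.2 CPM, lower in 9 of 10 mice. Oas2 lay at 11.4 to 104 CPM and then 6.92 to 39.9 CPM (−0.45, SE 0.21, p = 0.0549). The interferon-γ and MHC class II list had a median of −0.05 (8 higher, 9 lower), which was 0.23 without mouse 8 and 0.03 within batch 1. H2-Eb1, a class II chain of antigen-presenting cells, reached 358 CPM in the −3 library of mouse 1 and had a change of 0.25 (SE 0.32).

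Antibody genes were uneven between mice at both times. Ighg1, the IgG1 heavy chain made by plasma cells, lay at 0.193 to 25.2 CPM at −5 weeks (median 0.884) and 0.43 to 133 CPM at −3 weeks (median 10.3). It was higher in 7 of 10 mice and lower in mice 2, 7 and 8, and 4 of the −3 libraries exceeded every −5 library. The log2 change of 2.98 had a wide interval (SE 0.99, 95% interval 0.81 to 5.16, p = 0.0113, adjusted p = 0.864 by edgeR, 0.0517 by DESeq2 and 0.0517 to 0.999 over the alternatives), and was 4.30 in batch 1 and 1.57 in batch 2. Igkc, the κ light chain constant region, lay at 0.514 to 273 CPM at −5 weeks (median 11.5) and 2.87 to 160.3 CPM at −3 weeks (median 45.0), with a change of 1.65 (SE 0.99, p = 0.122). Its highest library of the 20 was that of mouse 8 at −5 weeks. Over the 13 tested plasma cell and immunoglobulin genes, 9 were higher and 4 lower, with a median of 0.36 that turned to −0.20 within batch 2. B cell markers had a median of 0.22, also of different sign in the batches (0.50 and −0.40) and −0.10 without mouse 3, and immunoglobulin genes share sequence, so that their reads can be split between copies.

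The macrophage median was near 0, and the monocyte and mature neutrophil medians were below it. The 13 macrophage markers summed to 3230 to 4525 CPM at −5 weeks (median 3982) and 2697 to 5079 CPM at −3 weeks (median 4002), with a median log2 change of 0.02 (−0.17 in batch 1 and 0.20 in batch 2). Among the 14 giant cell and lipid-associated macrophage markers, 10 were lower and 4 higher (median −0.10, but 0.05 in batch 2), the 2 with an unadjusted p under 0.05 being Ocstamp (−0.73, SE 0.31) and Atp6v0d2 (−0.27, SE 0.11), which both serve cell fusion in osteoclasts and giant cells. Atp6v0d2 had 344 to 704 CPM and then 355 to 606 CPM, lower in 8 of 10 mice. For monocytes, 7 of 10 genes were lower (median −0.27), among them Ifitm6 (−1.01, SE 0.29, p = 0.00461) and Plac8 (−0.49, SE 0.17, p = 0.0141). Ifitm6 was scarce, at 1.475 CPM or less in every library. The monocyte list sum was not lower, with medians of 621.5 CPM at −5 weeks and 638.2 CPM at −3 weeks. Of the 9 tested mature neutrophil genes 8 were lower (median −0.27, positive in 3 of 10 mice). Their list sum had medians of 277 and 103 CPM, most of it Mmp9, a gelatinase that macrophages and osteoclasts also make, with 28.8 to 1091 CPM and then 21.9 to 422 CPM (log2 change −1.05, SE 0.70, p = 0.163). S100a9, a defining neutrophil transcript, had medians of 0.86 and 0.557 CPM. T cell genes were 10 higher and 5 lower with a median of 0.03, and their changes ran from −0.60 to 0.34. Foxp3 of regulatory T cells, at the upper end, had a change of 0.34 (SE 0.18, p = 0.0772). Dendritic cell genes were 6 higher and 6 lower with a median of 0.02, and the list median was positive in 4 of 10 mice. Among them Batf3, needed by cross-presenting dendritic cells, had medians of 2.87 and 3.76 CPM (0.39, SE 0.14, p = 0.0193).

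In the cytokine, immediate early and glucose-sensing lists, no gene passed the threshold. Osm, a macrophage and neutrophil cytokine, had 4.24 to 7.84 CPM and then 3.81 to 5.94 CPM (−0.38, SE 0.12, p = 0.00823), and the chemokine Ccl3 had −0.57 (SE 0.22, p = 0.0229), both lower in 8 of 10 mice. Over that list 10 genes were lower and 6 higher (median −0.08, and 0.07 without mouse 5). All 13 immediate early genes were higher, with a median of 0.16, 3 at an unadjusted p under 0.05 and 0 past the threshold. Fosb, an AP-1 subunit, had medians of 6.99 and 12.6 CPM (0.74, SE 0.26, p = 0.0149), and Fos 69.8 and 78.5 CPM (0.28, SE 0.12, p = 0.0428). In batch 2 the changes of Fosb and Fos were 0.40 and 0.01, against 1.06 and 0.56 in batch 1. Glucose-sensing and glycolysis genes (12 of 16 higher, median 0.06, −0.01 in batch 1) held Arrdc4 and Klf10, a glucose-responsive zinc finger factor with 33.1 to 59.1 CPM and then 40.6 to 61.9 CPM (0.16, SE 0.05, p = 0.0122), higher in 9 of 10 mice.

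The medians of other lists were 0.09 for the circadian clock, −0.01 for glucocorticoid-responsive genes, 0.03 for insulin and FOXO response, −0.01 for heat shock, 0.18 for ATF4 targets, 0.07 for DNA replication and mitosis, −0.01 for collagen and matrix, −0.04 for fibroblasts, 0.18 for pericytes, 0.02 for Schwann cells and 0.02 for dendritic cells. Hspd1, a mitochondrial chaperone, had −0.16 (SE 0.06, p = 0.0204). Matrix and fibroblast genes were balanced, with 8 collagen and matrix genes higher and 10 lower. Endothelial genes were 12 of 12 higher in the fit, but the list median was positive in only 4 of 10 mice (per-mouse median −0.10). The fitted median of 0.29 was 1.04 in batch 1 and −0.24 in batch 2, and Eng, a TGF-β coreceptor of vessels, had 0.17 (SE 0.08, p = 0.0722). Erythroid genes were 7 of 7 higher in the fit (median 0.60), but their list median was positive in only 5 of 10 mice (per-mouse median 0.21), with Hba-a1 at 25.7 to 823 CPM and then 50.9 to 931 CPM (0.70, SE 0.37). Mast cell, eosinophil, epidermal, mitochondrially encoded and neutrophil precursor lists had medians of 0.15, −0.11, 0.14, 0.04 and 0.17. The 10 tested genes of the signature that the study drew from −7 and −5 weeks, in part from these −5 libraries, had a median of 0.0048, with 6 higher and 4 lower.

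**Figure D5:**
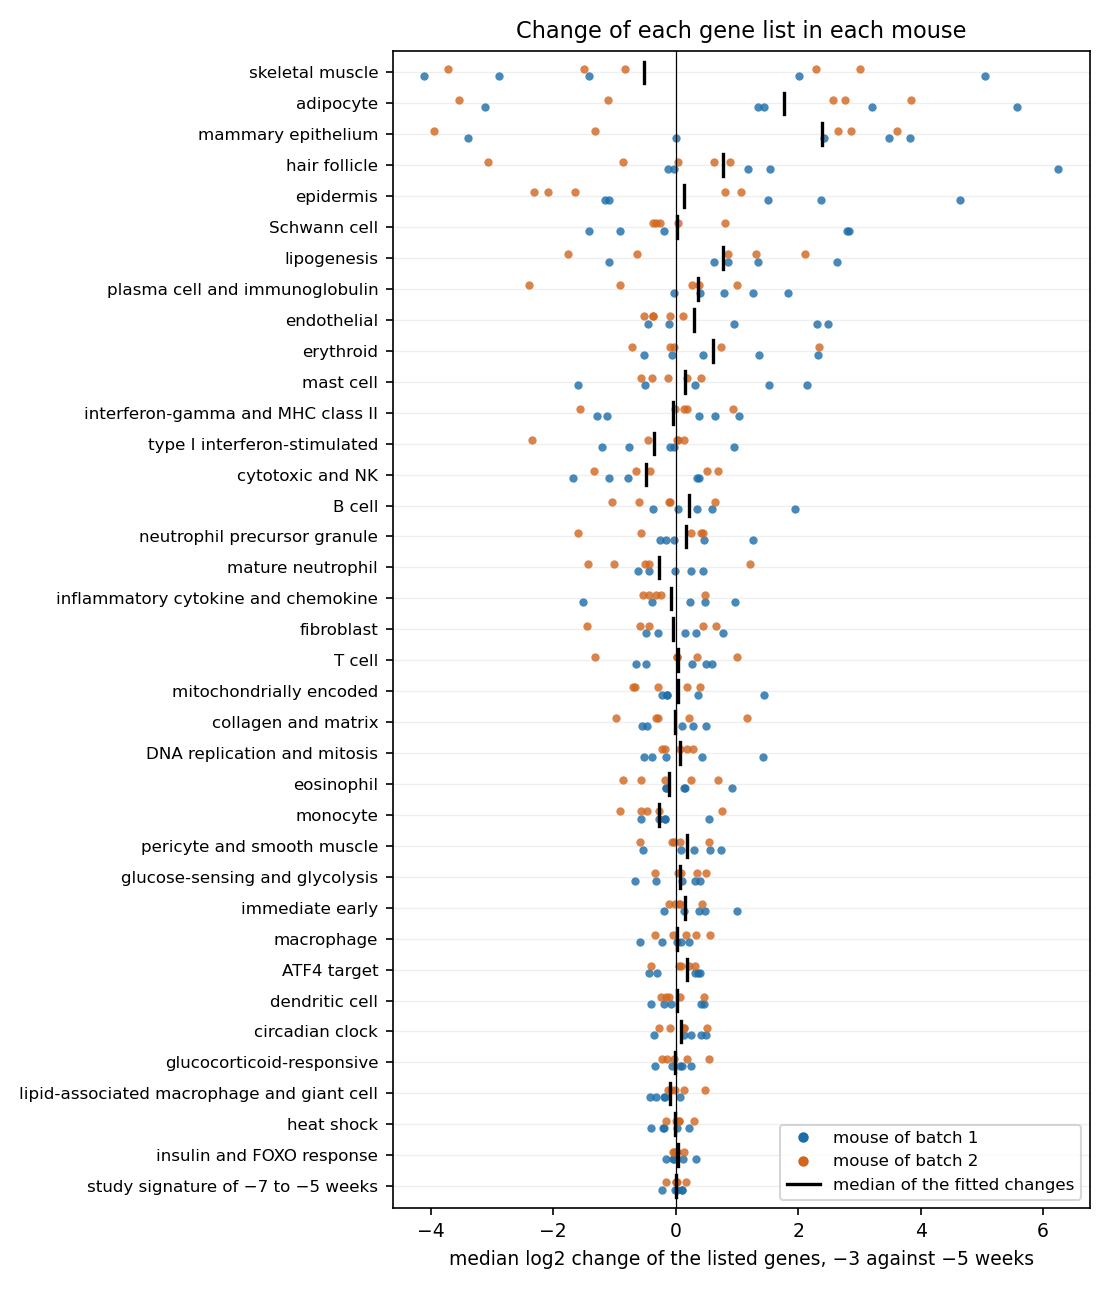
Median log2 change from −5 to −3 weeks of the genes of each list in each mouse (points; blue, batch 1; orange, batch 2) and the median of the fitted changes (black bars), ordered by the spread between mice. The spread (SD over 10 mice) goes from 0.119 for the study's signature to 3.12 for skeletal muscle, and 14 of the 37 lists have mice beyond 1 on both sides of 0.

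The batches were compared with each other by an interaction of time and batch. At −5 and −3 weeks, batch 2 holds mouse numbers other than those of batch 1, and it was read on another instrument. edgeR called 0 of 18888 genes, with 545 (2.89%) at an unadjusted p under 0.05, and DESeq2 called 1 (0.00529%, with 3.63% at an unadjusted p under 0.05), the immunoglobulin segment Igkv3-10. That segment was at 0 in the 5 libraries of batch 1 at −5 weeks and at 0.058 to 11.1 CPM in those mice at −3 weeks, so no fold is given. In batch 2 it lay at 0.226 to 1.13 and 0.233 to 1.3 CPM. The genes with the next smallest p were Gyg, a primer of glycogen synthesis (−0.34 in batch 1 and −0.02 in batch 2), Nfe2l2, the oxidative stress factor (−0.30 and 0.13), Dlg3 (−0.32 and 0.11) and the splicing factor Srsf5 (0.20 and −0.15), and Cd79a was too scarce to be fitted in batch 1.

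Nonprogressors, NOD mice that stayed normoglycemic, were chosen here as the comparison for mouse age. For aging, the paper itself relied on the time course of diabetes-resistant NOR mice. Mice 1 to 4 of the NOD nonprogressors had libraries at both 14 and 18 weeks of age, all in batch 1, and the interval is 4 weeks rather than 2. Between these ages 0 of 20962 genes passed (689, or 3.29%, at an unadjusted p under 0.05), and the difference between the progressor and nonprogressor changes passed for 0 genes by edgeR (701, or 3.34%, unadjusted) and by DESeq2 (749, or 3.57%). Of the 24 genes named first, 17 had the same direction in nonprogressors, where 52.4% of all tested genes did. Slc38a2 had −0.39 (SE 0.12) in nonprogressors, next to −0.33 in progressors, with a difference of 0.07 (unadjusted p = 0.639). Arrdc4 had 0.07 (SE 0.09) against 0.25, a difference of 0.19 (unadjusted p = 0.0905). Il33 had −0.13 (SE 0.23) and Ighg1 −2.56 (SE 1.81).

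The differences with the smallest p were those of Anks3 (0.14 in progressors and −0.29 in nonprogressors), Gpr85 (0.07 and 0.83), Xlr (−0.87 and 0.88), Rgs7bp (0.21 and −0.81) and the antisense RNA Hectd2os (−0.18 and −2.19). edgeR gave all 5 an adjusted p of 1. Fam177a2 was at 0 in some libraries of both groups and is given no fold. With 4 nonprogressors, 1 of whose libraries held 4722396 counts, the intervals of these differences were wide.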

How the data were processed

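Whole scaffolds were lysed in TRIzol and ribosome-depleted total RNA libraries were sequenced, each batch on its own NovaSeq instrument. The authors deposited RSEM expected counts per gene as whole numbers, in 1 table per batch, made with cutadapt, STAR and RSEM on GRCm38 according to the submitters' processing notes. Versions and the strand setting are not given in the sources used here. No table column belonged to another series (0 columns), and no file held the authors' own comparisons. Of 55487 genes in both tables, 55227 (99.5%) matched GENCODE M21 for positions, and promoters came from RefSeq.

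Counts entered edgeR 4.0.16 (R 4.3.3) unchanged, with filterByExpr, TMM scaling and the quasi-likelihood test on mouse and time, and with Benjamini-Hochberg adjustment over all tested genes. The scripts were tested on simulated counts. Log2 changes are unshrunk. Levels are TMM-scaled CPM, and changes in single mice add 0.5 CPM. The batch and nonprogressor differences were interaction terms. Alternatives were DESeq2 1.42.0, limma voom 3.58.1, RLE scaling, other filters, single batches, no mouse block, more progressor libraries and leaving out each mouse. A gene could pass the filter through 1 time alone.

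The pairing came from the mouse number in the labels, which was taken to name the same animal. Over the 2000 most variable genes, the pair of libraries of a mouse deviated from the group means with a mean r of −0.129 (−0.410 to 0.128), against 0.0294 for other mice of the batch, and r was over 0.1 in 1 mouse. No pair of libraries of 1 time agreed within sampling noise (the smallest chi-square per degree of freedom was 26.2 over 45 pairs at −3 weeks).

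The members, gene lists and tests were chosen with earlier results of these data known. Genes eligible to be named were the first 12 by p on either side of 0, the first 2 of each list and the first 3 on either side of 0 for both differences. Predicted or unnamed genes were left out, and not all eligible genes are named. Txnip, Rn7s2, Wap and Csn2 were named outside that rule, after their values were seen.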

Additional observations from a re-analysis of the deposited data

Results flagged for a closer look

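In each time, the highest or lowest of the 10 libraries was set against the others by Dixon's ratio, which chance passes in about 1 group in 20, and 13 of 194 groups passed (6.70%). At −5 weeks these were the total count of mouse 3 (47624571), the ribosomal RNA share of mouse 1 (1.79% of counts), the hair follicle sum of mouse 10 (884 CPM) with its Tchh (278 CPM), and Taf9b (15.1 CPM) and Oas2 (104 CPM) in mouse 8. At −3 weeks they were the mitochondrial share (4.01%), the share of the most abundant gene (17.5%) and the sum of mitochondrially encoded genes (46753 CPM) of mouse 4, the hair follicle sum (5441 CPM), its Tchh (2676 CPM) and the epidermis sum (362 CPM) of mouse 2, and Cd79a in mouse 3 (2.52 CPM). Their part in the values of other genes was not tested, and no difference between batches or between progressors and nonprogressors passed the adjusted test by edgeR.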

How the results depend on the processing

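Between −5 and −3 weeks, edgeR and limma voom called 0 genes under each of 18 alternatives, among them the fit with no replicate block (0), the 50-library fit with the mouse as replicate block (0), RLE scaling, other filters and single batches. DESeq2 called 4, and the cause was not tested. Leaving out each mouse gave 0 to 0 calls, with 542 to 1790 genes at an unadjusted p under 0.05, the highest without mouse 10. For the difference between batches DESeq2 called 1 gene, and the other settings, no replicate block included, called 0, as did every setting for the difference from nonprogressors. Leaving out the block changed no edgeR call. Of 56 named genes, 53 kept the sign of their log2 change in each alternative that could be fitted. The others were Cd79a (−0.44) and Tchh (−0.24) within batch 2 and Ttn without the replicate block (0.47). The list medians moved by less than 1 SD between mice, a measure under which a list can still change sign. Among those of different sign in batch 1 and batch 2 were endothelium (1.04 and −0.24), B cells (0.50 and −0.40) and epidermis (1.76 and −1.31).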
